A study of Mus musculus with 8 samples.

Results

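Albumin (Alb), transthyretin (Ttr), fetuin-A (Ahsg) and 7 apolipoproteins (Apoa1, Apoa2, Apoa4, Apob, Apoc1, Apoc3 and Apoe) were followed in liver RNA of wild-type mice given SLIT2, acetaminophen (APAP), both or neither. They were taken by symbol, and all 10 were found among the 23006 genes of the count table. Each of 4 groups had 2 libraries. SLIT2+APAP mice received APAP at 400 mg/kg and, by the intraperitoneal route for 3 days, 2 µg of SLIT2 per mouse, a secreted protein that binds ROBO receptors. APAP mice received saline and the same dose of APAP, SLIT2 mice received SLIT2 alone, and control mice received saline. Livers were collected 24 h after APAP and snap-frozen. Strain, sex and age were not given in the sources used here. Whether both libraries of a group stem from different mice is not stated in the labels. The p-values here therefore reflect the spread between these libraries only, which may be technical.

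Hepatocytes make most plasma proteins, and a small number of secreted protein transcripts dominates liver RNA. Albumin carries fatty acids and drugs and holds water in the vessels, transthyretin carries thyroid hormone and retinol-binding protein, and fetuin-A binds calcium phosphate in blood. Apolipoproteins build lipoproteins. ApoB is the scaffold of very low density lipoprotein (VLDL), ApoA-I and ApoA-II shape high density lipoprotein (HDL), and ApoE and the C apolipoproteins steer exchange and uptake of triglyceride-rich particles. Transcripts of albumin, transthyretin and fetuin-A are known to fall in the liver during an acute phase response. An APAP overdose injures hepatocytes around the central vein, where cytochromes turn the drug into a reactive metabolite. Liver tissue is a mixture, and in bulk RNA fewer cells of a type and less RNA per cell cannot be told apart.

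The promoters of 7 members were in the RefSeq promoter table (GRCm38.p6), and the 120 bases upstream of the RefSeq start are shown for 5 of them. They are shown as 3 promoters with and 2 without a motif match. Alb, Ahsg and Apob hold in this window a C/EBP core (TTGCNNAA), the letters read by a family of liver-enriched factors. Apoa1 and Apoe hold none of the motifs searched. For some of these genes the RefSeq start differs from that in the GENCODE annotation. The Ahsg window lies inside the GENCODE gene, which starts at 22891277. The windows of Apoa1 and Apob run into their GENCODE genes, which start at 46228580 and 7977648. Capitals mark every motif match in a window, and each sequence reads from 5′ to 3′ on the strand of its gene.
Alb, chr5:90460750-90460869, plus strand: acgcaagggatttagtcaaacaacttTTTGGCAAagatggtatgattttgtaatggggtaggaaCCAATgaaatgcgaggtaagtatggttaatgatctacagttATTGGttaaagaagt
Ahsg, chr16:22891895-22892014, plus strand: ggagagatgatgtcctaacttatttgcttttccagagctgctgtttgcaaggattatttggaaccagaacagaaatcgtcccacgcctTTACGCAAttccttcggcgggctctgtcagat
Apob, chr12:7977557-7977676, plus strand: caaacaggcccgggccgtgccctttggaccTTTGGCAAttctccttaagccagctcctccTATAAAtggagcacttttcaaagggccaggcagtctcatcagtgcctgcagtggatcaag
Apoa1, chr9:46228510-46228629, plus strand: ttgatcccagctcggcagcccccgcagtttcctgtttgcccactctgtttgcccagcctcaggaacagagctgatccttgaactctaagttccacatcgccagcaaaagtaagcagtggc
Apoe, chr7:19699189-19699308, minus strand: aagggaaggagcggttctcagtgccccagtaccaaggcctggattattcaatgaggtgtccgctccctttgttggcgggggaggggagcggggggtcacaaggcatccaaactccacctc

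Motifs were searched on both strands over the 250 bases upstream of the start in 32851 mouse promoters. The C/EBP core was found in 9.56% of these and in 3 of the 7 member promoters. CAAAGT, letters shared by many HNF4 sites, was found in 12.55% of the promoters and in 3 members (Alb, Apoa4 and Ahsg), outside the 120 bases shown. The CCAAT box was found in 33.85% of the promoters and in 2 members (Alb and Apoa2), and TATAAA in 12.37% and in 2 (Apoa2 and Apob). A match describes the letters and is not a measured binding site. In the GENCODE annotation of GRCm38, Apoa1, Apoc3 and Apoa4 lie side by side on chromosome 9, with 2466 and 5059 bases between neighbours, and Apoc3 is read from the opposite strand to the other two. Apoc1 and Apoe follow each other on the minus strand of chromosome 7, with 3448 bases between them. Exons of Apoa4 overlap an antisense gene, Gm10680, which had 62 counts over the 8 libraries, and the strand setting of the counting is not given in the sources used here.

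Each library held between 60.8 and 100.5 M counts, where 1 M stands for 1000000, and member counts lay between 660 and 5328850. The 13 mitochondrially encoded genes took 60.2% and 69.0% of all counts in the SLIT2 libraries, against 16.0% and 17.3% in control. They took 25.1% and 30.3% in SLIT2+APAP and 14.9% and 13.4% in APAP. Shares below are therefore percentages of the counts outside these 13 genes, while CPM is counts per 1000000 of all counts. Log2 fold changes come from edgeR's quasi-likelihood test with TMM scaling over 16876 genes, and calls were made below 0.05 after Benjamini-Hochberg adjustment over all genes. The standard errors were derived from the F statistic of that test, as the absolute log2 fold change divided by the square root of F. A second scaling used the totals outside the mitochondrially encoded genes. It was chosen after the data were seen. This scaling by totals alone moved the median log2 fold change of all genes in SLIT2 against control to 1.42, from about 0 with TMM. With TMM but without the mitochondrially encoded genes that median was 0. Member values and list counts are given under TMM and the second scaling where SLIT2 libraries are compared. The mitochondrial share moves with the SLIT2 results, and its part in them was not tested.

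Together the 10 transcripts made up 13.7% and 14.9% of counts outside mitochondrially encoded genes in the SLIT2+APAP libraries and 15.1% and 13.4% in the APAP libraries. They made up 4.95% and 2.87% in SLIT2 livers, against 7.93% and 11.2% in control. The SLIT2 livers were lowest and did not overlap any other group, whereas the SLIT2+APAP and APAP livers overlapped each other on this scale and lay above control. Group means were 14.3% ± 0.83 in SLIT2+APAP, 14.2% ± 1.19 in APAP, 3.91% ± 1.47 in SLIT2 and 9.57% ± 2.32 in control (SD, n = 2 each). SLIT2+APAP livers thus had 3.66 times the summed share of SLIT2 livers, and SLIT2 livers 0.408 times that of control. APAP livers had 1.49 times the control share, and SLIT2+APAP livers 1.01 times the APAP share. Each difference from control and from SLIT2 had a two-sided exact permutation p of 0.333, the smallest that 2 libraries against 2 allow, and that between SLIT2+APAP and APAP had an exact permutation p of 1. As a share of all counts the sum was 10.3% and 10.4% in SLIT2+APAP, 12.8% and 11.6% in APAP, 1.97% and 0.89% in SLIT2 and 6.66% and 9.28% in control, so SLIT2+APAP did not overlap APAP and lay below it. The same held without Alb, where the sum outside mitochondrially encoded genes was 6.94% and 6.91% in SLIT2+APAP, against 7.76% and 7.19% in APAP.

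**Figure D1:**
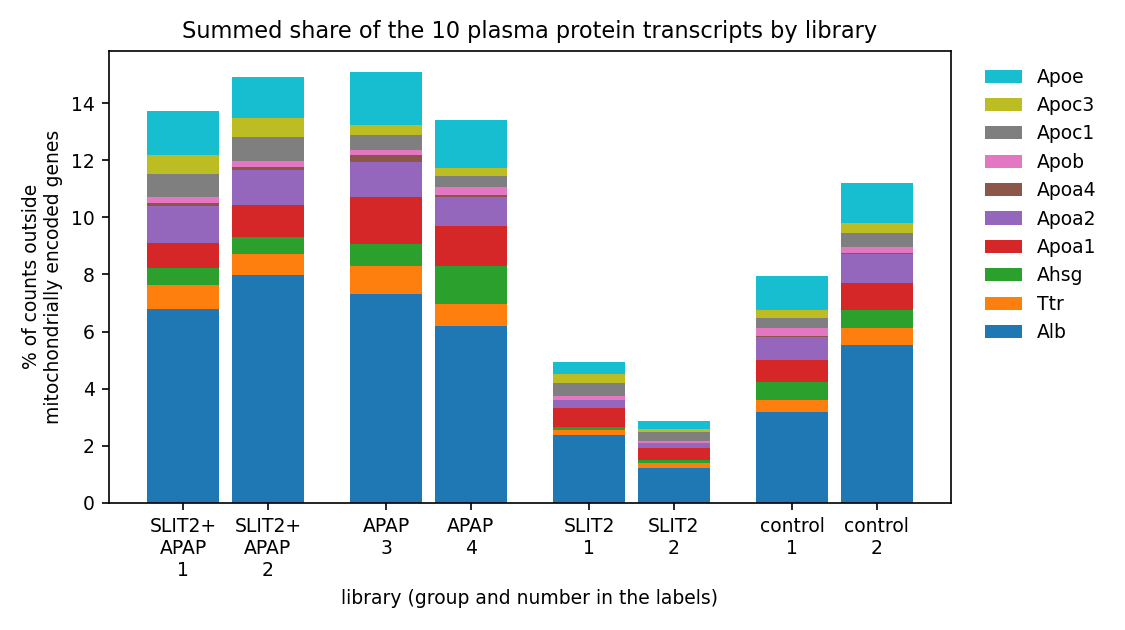
Summed share of the 10 transcripts in each of the 8 libraries, as a percentage of counts outside mitochondrially encoded genes (y axis), with 1 bar per library and 1 colour per gene. Both SLIT2 bars (4.95% and 2.87%) stand below the control bars (7.93% and 11.2%), and all 4 bars with APAP reach at least 13.4%.

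Levels can be compared between genes only per length, here as counts per kilobase of exon and per 1000000 counts outside mitochondrially encoded genes. Alb led in every group, with means of 31589 in SLIT2+APAP, 28898 in APAP, 7710.3 in SLIT2 and 18592 in control. In control its range overlapped that of Apoa2, the next gene, and in SLIT2 that of Apoc1, which took second place there. Below Apoa2 in control came Apoa1, Apoe, Apoc1, Ttr, Apoc3, Ahsg, Apoa4 and Apob. The ranges of Apoa1 and Apoe, Apoe and Apoc1, Apoc3 and Ahsg, and Apoa4 and Apob overlapped. Apob, whose transcript is by far the longest, was lowest per kilobase in SLIT2+APAP (154), APAP (171) and control (175). In SLIT2 livers the lowest was Apoa4, at 32.6 per kilobase, against 78.0 for Apob.

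Albumin was the most abundant transcript of the set and the most variable in control livers. Alb took 6.80% and 7.997% of counts outside mitochondrially encoded genes in SLIT2+APAP, 7.33% and 6.21% in APAP, 2.38% and 1.24% in SLIT2 and 3.17% and 5.54% in control. Both libraries of SLIT2 lay below all others, and control did not overlap the 4 libraries with APAP, which lay higher. In CPM of all counts Alb stood at 50930.2 and 55766 in SLIT2+APAP, 62385 and 53758 in APAP, 9446 and 3829 in SLIT2 and 26619 and 45837 in control. Ttr, the thyroid hormone and retinol carrier, had shares of 0.820% and 0.723% in SLIT2+APAP, 0.967% and 0.759% in APAP, 0.158% in both SLIT2 libraries and 0.430% and 0.573% in control. Its groups with APAP overlapped each other, stood above control and stood above SLIT2. Ahsg took 0.625% and 0.578% in SLIT2+APAP, 0.769% and 1.32% in APAP, 0.136% and 0.117% in SLIT2 and 0.628% and 0.635% in control. Fetuin-A transcripts in SLIT2+APAP thus stood just under control, APAP stood higher with a wide gap between its libraries, and SLIT2 was far lower. In CPM, Ttr had 6145 and 5039 in SLIT2+APAP, 8237 and 6572 in APAP, 629.7 and 489 in SLIT2 and 3612 and 4737 in control. Ahsg had 4681 and 4031 CPM in SLIT2+APAP, 6544 and 11412 in APAP, 539 and 362 in SLIT2 and 5279.5 and 5255 in control.

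Among the HDL apolipoproteins, Apoa1, the main HDL protein and activator of lecithin-cholesterol acyltransferase, had shares of 0.874% and 1.13% in SLIT2+APAP, 1.64% and 1.41% in APAP, 0.658% and 0.423% in SLIT2 and 0.786% and 0.951% in control. The APAP libraries were highest and the SLIT2 libraries lowest, while SLIT2+APAP overlapped control. Apoa2, the second HDL protein, had 1.28% and 1.22% in SLIT2+APAP, 1.22% and 1.01% in APAP, 0.271% and 0.150% in SLIT2 and 0.811% and 1.00% in control. Here SLIT2+APAP and APAP overlapped at the top, and SLIT2 lay far below. Apoa4, made by liver and by intestinal enterocytes in mice and carried on chylomicrons and HDL, had 0.111% and 0.115% in SLIT2+APAP, 0.244% and 0.0865% in APAP, 0.00835% and 0.00350% in SLIT2 and 0.0304% and 0.0432% in control. All 4 libraries with APAP exceeded both control libraries, although the APAP libraries differed widely from each other. In CPM, Apoa1 ran from 6544 to 7857 in SLIT2+APAP, 12232 to 13984 in APAP, 1313 to 2615 in SLIT2 and 6599.5 to 7870.4 in control. Apoa2 ran from 8519 to 9556 CPM in SLIT2+APAP, 8702 to 10406 in APAP, 466 to 1078 in SLIT2 and 6817 to 8288 in control. Apoa4, at 805 to 829 CPM in SLIT2+APAP, 749 to 2074 in APAP, 10.9 to 33.2 in SLIT2 and 256 to 357 in control, covered the widest fold range of the set.

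On the VLDL side, Apob had shares of 0.227% and 0.201% in SLIT2+APAP, 0.188% and 0.289% in APAP, 0.134% and 0.0834% in SLIT2 and 0.255% and 0.233% in control. It was low in SLIT2 and otherwise within a narrow range, with APAP on both sides of control. Apoe, the ligand for remnant uptake, had 1.54% and 1.41% in SLIT2+APAP, 1.86% and 1.66% in APAP, 0.442% and 0.275% in SLIT2 and 1.17% and 1.42% in control. SLIT2+APAP overlapped control, APAP lay above both, and SLIT2 lay lowest. The C apolipoproteins behaved otherwise. Apoc1, an inhibitor of cholesteryl ester transfer protein in humans and of remnant uptake, had 0.800% and 0.851% in SLIT2+APAP, 0.514% and 0.356% in APAP, 0.472% and 0.311% in SLIT2 and 0.382% and 0.459% in control. Apoc3, which slows lipolysis and remnant clearance, had 0.668% and 0.686% in SLIT2+APAP, 0.355% and 0.307% in APAP, 0.292% and 0.118% in SLIT2 and 0.274% and 0.362% in control. For both genes the SLIT2+APAP libraries were above all 6 others, and APAP and SLIT2 each overlapped control. Of 15804 genes averaging at least 10 counts, 46.1% were higher without overlap in SLIT2+APAP than in APAP, and 65.4% than in control. Neither Apoc1 nor Apoc3 was called against APAP or against control under either scaling. In CPM of all counts, Apob ran from 1404 to 1699.9 in SLIT2+APAP, 1603 to 2504 in APAP, 258 to 533 in SLIT2 and 1929 to 2144 in control. Apoe ran from 9806 to 11519 CPM in SLIT2+APAP, 14362 to 15808 in APAP, 851 to 1759 in SLIT2 and 9809 to 11734 in control. For Apoc1 the CPM were 5931 to 5992 in SLIT2+APAP, 3084 to 4372 in APAP, 963 to 1876 in SLIT2 and 3213 to 3800.1 in control. For Apoc3 they were 4786 to 5003 in SLIT2+APAP, 2659 to 3021 in APAP, 365 to 1161 in SLIT2 and 2301 to 2994 in control, so in CPM the SLIT2 libraries lay below control for both genes.

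**Figure D2:**
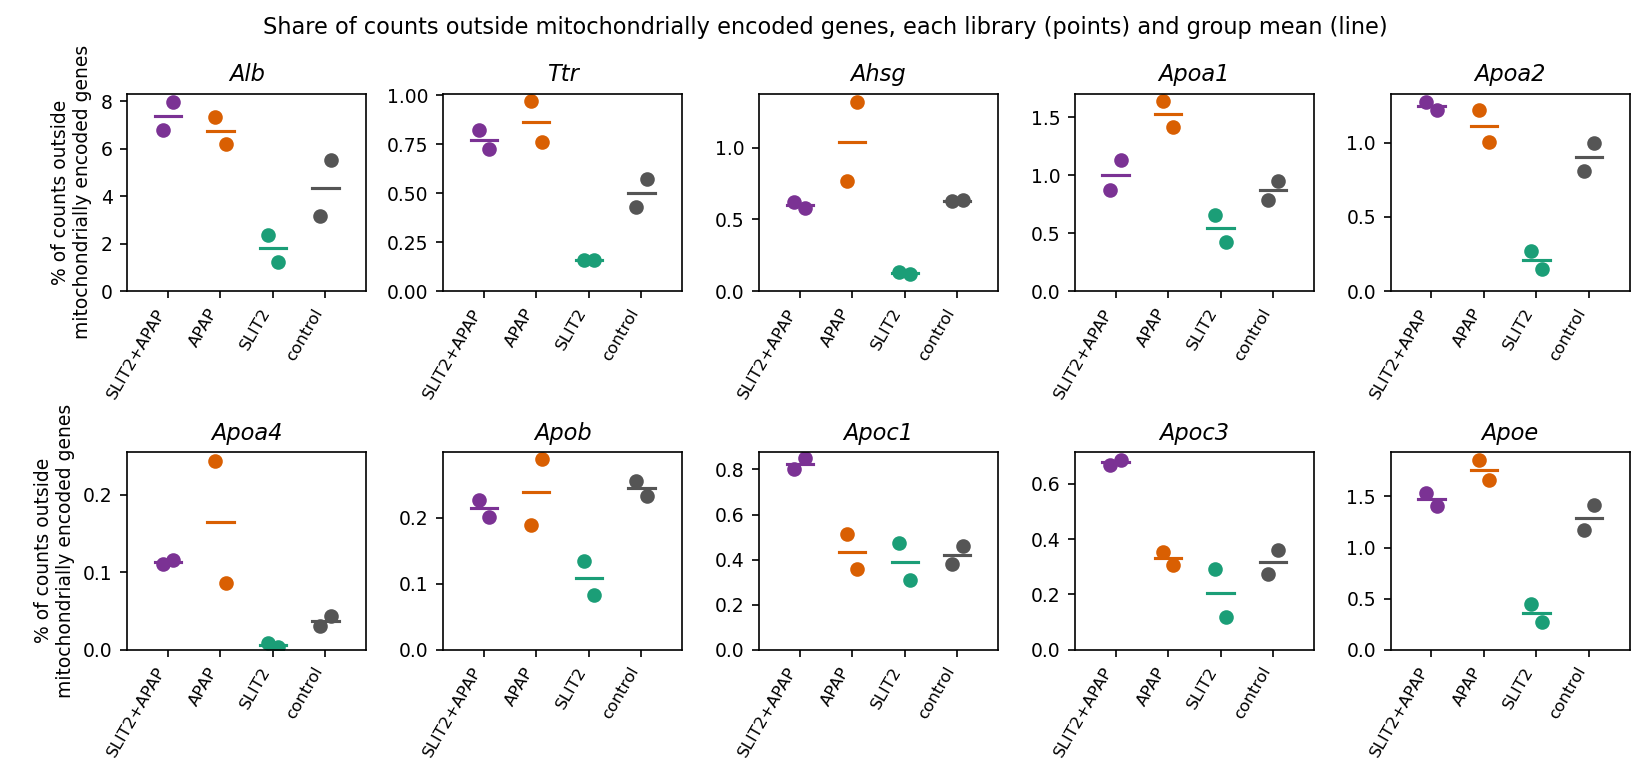
Share of each transcript as a percentage of counts outside mitochondrially encoded genes (y axes, each from 0), with 1 point per library and a line at the group mean (n = 2). Apoc1 and Apoc3 are highest in SLIT2+APAP (0.800% and 0.851%, 0.668% and 0.686%), while Apoa1 and Apoe are highest in APAP. Of 15804 genes averaging at least 10 counts, 46.1% were higher without overlap in SLIT2+APAP than in APAP, and 14.9% were lower.

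SLIT2 against control asks what SLIT2 did without the drug. With TMM scaling all 10 transcripts were called lower in SLIT2 livers, as were 27.6% of all genes tested. The log2 fold change was -3.68 ± 0.37 for Ahsg (edgeR adjusted p = 0.000177), -3.02 ± 0.34 for Ttr (adjusted p = 0.000259) and -2.60 ± 0.48 for Alb (adjusted p = 0.00262). Among the HDL apolipoproteins it was -3.96 ± 0.64 for Apoa4 (adjusted p = 0.00136), -3.44 ± 0.42 for Apoa2 (adjusted p = 0.000385) and -2.03 ± 0.36 for Apoa1 (adjusted p = 0.00208). For Apoe it was -3.19 ± 0.39 (adjusted p = 0.000399) and for Apob -2.52 ± 0.37 (adjusted p = 0.000887). The smallest log2 changes were those of Apoc3 (-1.96 ± 0.46, adjusted p = 0.00775) and Apoc1 (-1.45 ± 0.36, adjusted p = 0.0101), and the call of Apoc1 was lost without control 2. The median of the 10 was -2.81, against -0.00 for all genes tested.

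With the totals outside mitochondrially encoded genes, 7 of the 10 were called lower in SLIT2 than in control and 8.36% of all genes were. The log2 values were then -2.32 ± 0.34 for Ahsg, -2.63 ± 0.56 for Apoa4, -2.11 ± 0.36 for Apoa2 and -1.85 ± 0.34 for Apoe. They were -1.67 ± 0.30 for Ttr, -1.27 ± 0.44 for Alb and -1.17 ± 0.33 for Apob. Apoa1 (-0.68 ± 0.33, adjusted p = 0.0976), Apoc3 (-0.63 ± 0.41, adjusted p = 0.198) and Apoc1 (-0.10 ± 0.32, adjusted p = 0.79) did not pass. The log2 fold changes of all 10 were negative under every alternative run. Shares of 8 members were lower in both SLIT2 libraries than in either control library, as were those of 16.5% of the 15804 genes averaging at least 10 counts, and Apoc1 and Apoc3 overlapped.

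SLIT2+APAP against SLIT2 asks what the drug did in SLIT2-treated mice, and all 10 transcripts were higher with the drug. With TMM scaling 20.6% of all genes were called higher. Apoa4 rose by 5.08 ± 0.67 on the log2 scale (edgeR adjusted p = 0.0013), Apoa2 by 3.41 ± 0.42 (adjusted p = 0.00104), Ttr by 3.15 ± 0.34 (adjusted p = 0.000737) and Ahsg by 3.11 ± 0.36 (adjusted p = 0.000868). Apoe rose by 2.88 ± 0.39 (adjusted p = 0.00138), Alb by 2.86 ± 0.49 (adjusted p = 0.00315) and Apoc3 by 2.55 ± 0.47 (adjusted p = 0.00429). Apoc1 (1.92 ± 0.36, adjusted p = 0.005), Apob (1.83 ± 0.36, adjusted p = 0.00588) and Apoa1 (1.72 ± 0.35, adjusted p = 0.00696) changed least. The median of the 10 was 2.87, against -0.02 for all genes. With totals outside mitochondrially encoded genes 9 of the 10 were called, where 7.36% of all genes were called higher and their median was -0.91. Apoa1 was the exception (0.89 ± 0.33, adjusted p = 0.0521), and Apoa4 (4.25 ± 0.60) and Apoa2 (2.57 ± 0.37) again rose most. The shares of all 10 were higher without overlap, as were those of 18.4% of the 15804 genes. This comparison shares the SLIT2 libraries with the one before.

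**Figure D3:**
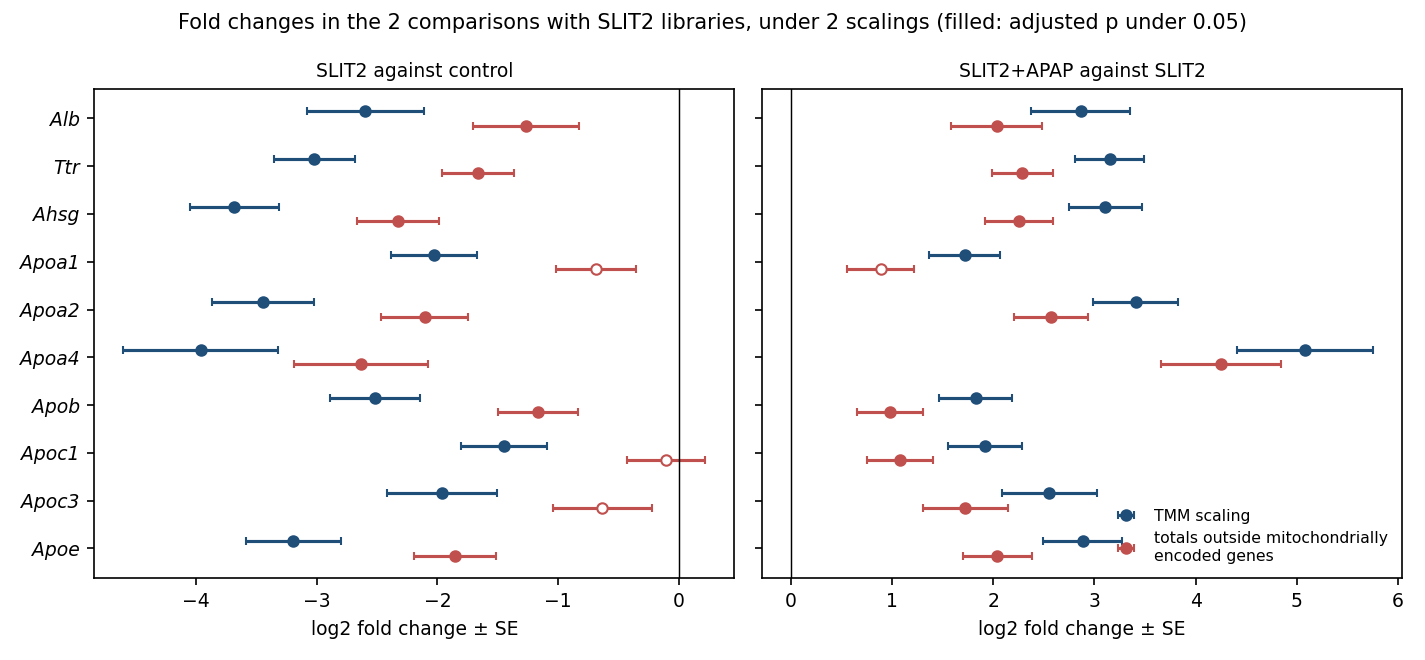
Log2 fold change ± SE (x axes) of each transcript in SLIT2 against control (left) and SLIT2+APAP against SLIT2 (right), with TMM scaling and with totals outside mitochondrially encoded genes; filled points passed an adjusted p of 0.05. Under the second scaling Apoa1, Apoc1 and Apoc3 are unfilled on the left and Apoa1 on the right.

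SLIT2+APAP against APAP asks what SLIT2 did in mice that received the drug, and 1 of the 10 transcripts, Ahsg, was called. It was lower in SLIT2+APAP, with 7.64% of all genes called lower, and no member was called higher, with 6.29% of all genes. Its log2 fold change was -1.21 ± 0.33 (edgeR adjusted p = 0.0496), and both SLIT2+APAP libraries lay below both APAP libraries. The call was lost with DESeq2 size factors in edgeR, library totals, no mitochondrially encoded genes, GC offsets, only the groups compared, no SLIT2 libraries or totals outside mitochondrially encoded genes. It was also lost without control 1, control 2, SLIT2 1, SLIT2 2, APAP 4, SLIT2+APAP 1 or SLIT2+APAP 2. Over these and all other settings run, the log2 value lay between -1.51, without APAP 3, where the call was kept, and -0.79. Apoa1 had a log2 fold change of -1.06 ± 0.35 (adjusted p = 0.0781), and was called with DESeq2, without the SLIT2 libraries and without SLIT2 1 or SLIT2 2. The value for Apoa4 was -1.01 ± 0.57 (adjusted p = 0.255), which was called without APAP 4 and was 0.01 without APAP 3, the library in which it had its highest share, 0.244%. Apoe (-0.69 ± 0.36), Ttr (-0.60 ± 0.31), Apob (-0.57 ± 0.35), Alb (-0.32 ± 0.45) and Apoa2 (-0.27 ± 0.38) had negative log2 values that did not pass, and those of Alb (0.13) and Apoa2 (0.17) were positive with totals outside mitochondrially encoded genes. Apoc3 (0.59 ± 0.44, adjusted p = 0.384) and Apoc1 (0.48 ± 0.35, adjusted p = 0.38) had positive values, which were 1.03 ± 0.41 (adjusted p = 0.115) and 0.92 ± 0.33 (adjusted p = 0.0839) under that scaling. In shares, these 2 genes were higher without overlap, as were 46.1% of all genes, and Apoa1, Apoe and Ahsg were lower without overlap, as were 14.9%.

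APAP against control asks what the drug did without SLIT2. None of the 10 was called in APAP livers, where 0.332% of all genes were called higher and 0.456% lower, and 2 members (Ttr and Apoa4) had an unadjusted edgeR p under 0.05. DESeq2 called 1 member, Apoa4. The log2 fold change of Apoa4 was 2.13 ± 0.59 (edgeR adjusted p = 0.0936). It was called without APAP 4. Apoa1 (0.75 ± 0.35), Ttr (0.73 ± 0.31), Ahsg (0.64 ± 0.33), Alb (0.59 ± 0.46), Apoe (0.38 ± 0.36) and Apoa2 (0.24 ± 0.38) had positive log2 values. Apob (-0.12 ± 0.35), Apoc1 (-0.01 ± 0.35) and Apoc3 (-0.00 ± 0.44) lay near 0, with signs that changed between settings. The shares of 7 members were higher without overlap, as were those of 30.4% of all genes, and none was lower without overlap, against 22.1% of all genes. The APAP libraries differed more from each other than those of any other group, with a median absolute log2 difference over genes of 0.60, against 0.36 in SLIT2 and 0.22 in SLIT2+APAP and in control.

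In SLIT2+APAP against control no member was called, with 0.717% of all genes called higher and 1.45% lower. No member had an unadjusted edgeR p under 0.05 and DESeq2 called 0. With only the libraries of these groups in the fit, Apoa4 was called higher and Apob lower. The log2 values were 1.12 ± 0.57 for Apoa4, 0.59 ± 0.44 for Apoc3, 0.47 ± 0.35 for Apoc1, 0.27 ± 0.45 for Alb and 0.13 ± 0.31 for Ttr. They were -0.04 ± 0.38 for Apoa2, -0.31 ± 0.35 for Apoa1, -0.31 ± 0.36 for Apoe, -0.57 ± 0.33 for Ahsg and -0.69 ± 0.35 for Apob. With totals outside mitochondrially encoded genes those of Apoa1 (0.20), Apoa2 (0.46) and Apoe (0.19) were positive. Alb and Ttr turned to -0.03 and -0.01 without control 1, and Ttr to -0.08 without SLIT2+APAP 1. In shares 6 members were higher without overlap, as were 65.4% of all genes, and Apob and Ahsg were lower, as were 11.7%.

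**Figure D4:**
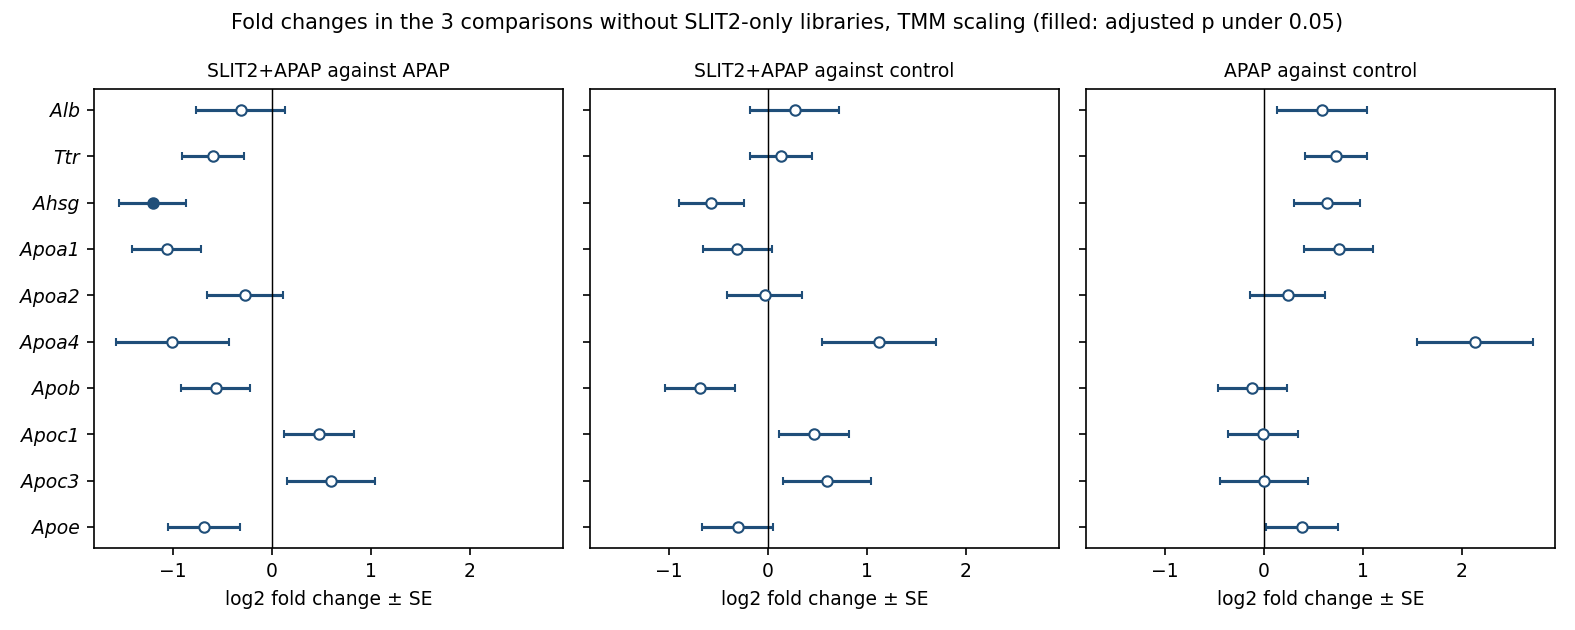
Log2 fold change ± SE (x axes, TMM scaling) of each transcript in 3 comparisons: with both agents against APAP (left), with both against control (middle) and APAP against control (right); a filled point passed an adjusted p of 0.05. Only Ahsg in the first panel is filled (-1.21 ± 0.33).

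The interaction asks whether the effect of SLIT2 differed between mice with and without the drug, as the log2 fold change of SLIT2+APAP against APAP minus that of SLIT2 against control. It was positive and called for 9 members, where 15.5% of all genes were called positive. The values were 3.17 ± 0.55 for Apoa2 (edgeR adjusted p = 0.00797), 2.95 ± 0.82 for Apoa4 (adjusted p = 0.032) and 2.55 ± 0.64 for Apoc3 (adjusted p = 0.0233). They were 2.5 ± 0.52 for Apoe (adjusted p = 0.0131), 2.47 ± 0.47 for Ahsg (adjusted p = 0.0102) and 2.42 ± 0.45 for Ttr (adjusted p = 0.00916). Alb (2.28 ± 0.65, adjusted p = 0.0349), Apob (1.95 ± 0.50, adjusted p = 0.0257) and Apoc1 (1.92 ± 0.50, adjusted p = 0.0271) also passed, and Apoa1 did not (0.96 ± 0.49, adjusted p = 0.167). With totals outside mitochondrially encoded genes 4 members were called (Apoa2, 2.27 ± 0.50, Ttr, 1.503 ± 0.413, Apoe, 1.59 ± 0.47, and Ahsg, 1.53 ± 0.46), where 5.54% of all genes were called positive. Under that scaling Apoa4 (2.09 ± 0.75), Apoc3 (1.67 ± 0.58), Alb (1.40 ± 0.61), Apoc1 (1.03 ± 0.46), Apob (1.01 ± 0.46) and Apoa1 (0.07 ± 0.47) did not pass. The number called was 3 without control 1, 3 without control 2, 10 without SLIT2 1, 5 without SLIT2 2, 1 without SLIT2+APAP 1 and 4 without SLIT2+APAP 2. It was 8 without APAP 3 or APAP 4.

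Ratios of counts between members of a library do not depend on how libraries are scaled. Apoc1 to Apoe, neighbours on chromosome 7, had a ratio of 0.520 and 0.605 in SLIT2+APAP, 0.277 and 0.215 in APAP, 1.07 and 1.13 in SLIT2 and 0.328 and 0.324 in control. The 4 groups did not overlap, with SLIT2 highest and APAP lowest. Apoc3 to Apoa1, neighbours on chromosome 9, had 0.765 and 0.609 in SLIT2+APAP, 0.216 and 0.217 in APAP, 0.444 and 0.278 in SLIT2 and 0.349 and 0.380 in control. This ratio was highest in SLIT2+APAP and lowest in APAP, and SLIT2 spanned control. For Apoa2 to Apoa1 the ratio was 1.46 and 1.08 in SLIT2+APAP, 0.744 and 0.711 in APAP, 0.412 and 0.355 in SLIT2 and 1.03 and 1.05 in control. HDL protein transcripts thus kept no fixed proportion, with SLIT2 lowest and APAP below control. Apoa4 to Apoa1 was 0.127 and 0.103 in SLIT2+APAP, 0.148 and 0.0612 in APAP, 0.0127 and 0.0083 in SLIT2 and 0.0387 and 0.0454 in control, so all 4 libraries with APAP stood above control and SLIT2 stood below it. Apoc3 to Apoc1 was 0.835 and 0.807 in SLIT2+APAP, 0.691 and 0.862 in APAP, 0.619 and 0.379 in SLIT2 and 0.716 and 0.788 in control. Here SLIT2+APAP fell within the range of APAP, and SLIT2 was lowest. Ahsg to Alb was 0.0919 and 0.0723 in SLIT2+APAP, 0.105 and 0.212 in APAP, 0.0571 and 0.0944 in SLIT2 and 0.198 and 0.115 in control. Its SLIT2+APAP libraries fell within the range of SLIT2, and APAP overlapped control. For Apob to Alb SLIT2 (0.0564 and 0.0675) fell within the range of control (0.0805 and 0.0421). The ratios are given as values for chosen pairs and were not tested. How often other gene pairs separate the groups was not counted.

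**Figure D5:**
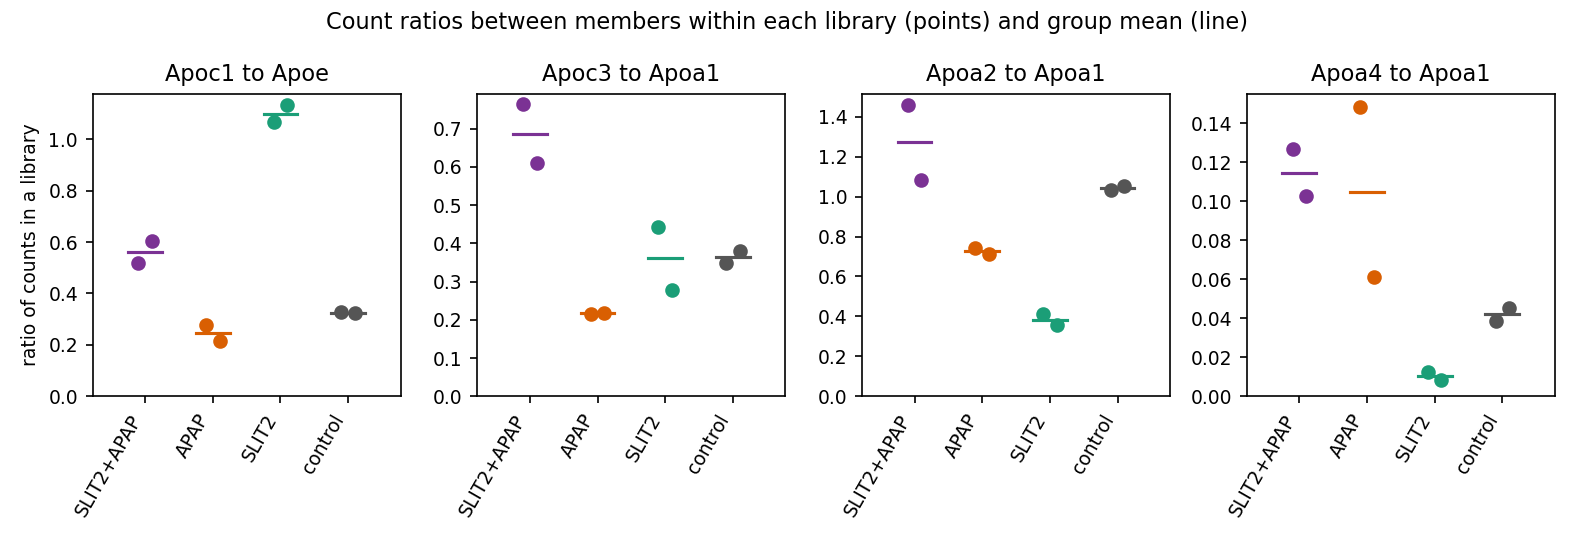
Ratios of counts between pairs of members within each library (y axes from 0), with 1 point per library and a line at the group mean (n = 2). Apoc1 to Apoe separates all 4 groups, with SLIT2 near 1.10 and APAP near 0.246, and Apoc3 to Apoa1 is highest in SLIT2+APAP (0.765 and 0.609).

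Other genes of the pathway were counted from lists chosen with earlier results of these data known, and values are TMM-scaled log2 fold changes. In SLIT2 against control, where 27.3% of all genes were called higher and 27.6% lower, 9 of 10 other apolipoproteins fell and 1 rose, with a list median of -1.51. The 1 that rose was Apod (1.60 ± 0.54), at 1.33 and 0.652 TMM-scaled CPM in SLIT2 and 0.441 and 0.221 in control, a call lost without SLIT2 1 (0.97), control 1, control 2, SLIT2+APAP 1 or SLIT2+APAP 2. The clearest falls were those of Apoh (-3.90 ± 0.30), Apof (-2.96 ± 0.34), Apom (-2.91 ± 0.29) and clusterin, Clu (-2.84 ± 0.34). The number of these 10 genes called was 5 without control 2, and with totals outside mitochondrially encoded genes 4 fell and 1 rose, with a median of -0.17. Of 14 genes of lipoprotein assembly and remodelling 7 fell and 1 rose, with a median of -1.24, and under the second scaling 4 fell and 2 rose, with a median of 0.13. The 1 that rose was Angptl8, an inhibitor of lipolysis (3.30 ± 0.98), at 51.7 and 566 TMM-scaled CPM in SLIT2 and 34.6 and 28.3 in control. It rests on SLIT2 2, without which the value was 0.75 and did not pass, and the call was also lost without either control or either APAP library. Among those that fell were Surf4, an export receptor of the endoplasmic reticulum (-3.32 ± 0.33), and Mttp, which loads lipid onto ApoB (-3.18 ± 0.24). P4hb, the partner subunit of Mttp (-3.16 ± 0.33), and Sar1b, a coat protein of export vesicles (-2.58 ± 0.36), fell as well. Of 12 other secreted plasma carriers 10 fell and 0 rose, with a median of -2.10, and under the second scaling 5 fell and 2 rose. Those that fell with TMM included the retinol carrier Rbp4 (-3.01 ± 0.29), Ambp (-3.00 ± 0.32), the vitamin D carrier Gc (-2.10 ± 0.30) and Azgp1 (-1.81 ± 0.25). Of 16 positive acute phase proteins 11 fell and 0 rose, with a median of -2.69, and under the second scaling 10 fell and 0 rose. With TMM, those that fell included the fibrinogen chains Fga (-3.66 ± 0.41), Fgg (-3.46 ± 0.46) and Fgb (-3.14 ± 0.37) and Crp (-3.61 ± 0.55). Of 7 lipoprotein receptor and clearance genes Sdc1 fell (-2.46 ± 0.28) and Vldlr rose (2.54 ± 0.62), whose call was lost without control 2, and under the second scaling 1 fell and 4 rose. Of 14 liver transcription factors 3 fell and 3 rose, and the number called was 2 without control 1, 2 without control 2, 3 without SLIT2 2 and 3 with library totals. Under the second scaling 0 of the 14 fell and 9 rose, where 56.6% of all genes were called higher and 8.36% lower. Ppara, a fatty acid sensor, rose by 1.73 ± 0.29, and Prox1 by 2.35 ± 0.49, a call lost without control 1. Prox1 was near the floor, at a mean of 0.854 TMM-scaled CPM in SLIT2 and 0.165 in control. Cebpa (-0.96 ± 0.26) and Cebpb (-0.87 ± 0.29) fell with TMM scaling and had positive values (0.38 and 0.49) with totals outside mitochondrially encoded genes. The Cebpa call was lost without control 2 or SLIT2 2, and that of Cebpb without either control or SLIT2 library.

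When SLIT2+APAP was set against SLIT2, where 20.6% of all genes were called higher and 20.0% lower, 9 of 10 other apolipoproteins rose, led by Apoh (3.44 ± 0.29), Apof (2.82 ± 0.34) and Apom (1.52 ± 0.28), and Apod fell (-3.38 ± 0.63). Their median was 1.44, the number called was 5 without SLIT2+APAP 1, and under the second scaling 2 rose and 1 fell, with a median of 0.60. Of the 14 assembly genes 8 rose and 1 fell, Lipg (-1.26 ± 0.42), and the number called was 5 without SLIT2 2 and 4 without SLIT2+APAP 1. Lipg encodes endothelial lipase and had 2.65 and 1.43 TMM-scaled CPM in SLIT2+APAP, against 5.62 and 4.13 in SLIT2. The call was kept without either APAP library and lost without any other. Under the second scaling 4 of the assembly genes rose and 3 fell. Mttp (2.48 ± 0.23), P4hb (2.79 ± 0.32), Surf4 (2.66 ± 0.32) and Sar1b (2.21 ± 0.36) were among those that rose. All 16 acute phase proteins rose, with a median of 3.21, and under the second scaling 14 did. Those with the smallest p were Itih4 (3.03 ± 0.35), Fgb (2.73 ± 0.36), Lcn2 (5.49 ± 0.87) and Fga (2.42 ± 0.39). Of 12 other carriers 11 rose, with a median of 2.05, and 8 under the second scaling, including Ambp (2.89 ± 0.31), Rbp4 (2.45 ± 0.28), Gc (2.16 ± 0.30) and Kng1 (2.03 ± 0.30). Sdc1 (2.26 ± 0.27) rose and Vldlr (-2.22 ± 0.61) fell among the 7 receptor and clearance genes. The Vldlr call was lost without SLIT2 2, SLIT2+APAP 1 or SLIT2+APAP 2, and under the second scaling 1 gene of this list rose and 3 fell. Of 14 transcription factors Prox1 (-2.001 ± 0.479) and Ppara (-0.82 ± 0.28) fell and Cebpa (0.86 ± 0.26) rose, and all 3 were lost without SLIT2+APAP 2, while 6 were called without APAP 3 or APAP 4. Under the second scaling 0 of the 14 rose and 6 fell, where 7.36% of all genes were called higher and 41.8% lower. Prox1 and Ppara were also lost without SLIT2 1, Cebpa and Ppara without SLIT2 2, all 3 without SLIT2+APAP 1, and Ppara without either control library.

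In SLIT2+APAP against APAP 6.29% of all genes were called higher and 7.64% lower. Among 10 other apolipoproteins, SLIT2+APAP livers had lower Apom (-2.60 ± 0.29) and Clu (-2.62 ± 0.33), both calls being lost without SLIT2+APAP 2. None of 12 other carriers was called by edgeR, with 3 at an unadjusted p under 0.05 and 3 called by DESeq2. Of 7 receptor and clearance genes Scarb1, the HDL receptor (-1.41 ± 0.19), and Sdc1 (-1.11 ± 0.26) fell, each lost without SLIT2+APAP 1 or SLIT2+APAP 2, and Sdc1 also without either control library. Of 16 acute phase proteins 4 fell, Fga (-3.15 ± 0.40), Fgg (-2.54 ± 0.44), Fgb (-1.51 ± 0.35) and Itih3 (-1.25 ± 0.24), with a median of -0.75. All 4 were lost without SLIT2+APAP 2, and Fgg, Fgb and Itih3 without SLIT2+APAP 1. Fgb and Itih3 were also lost without either control library and Fgb without APAP 3. Among 14 transcription factors Cebpb fell (-1.15 ± 0.29) and Nr1h4 rose (1.01 ± 0.27), and the number called was 5 without APAP 4. The cholesterol exporter Abca1 of the assembly list fell (-1.53 ± 0.42), with a value of -0.60 without APAP 3. Each of these 3 was lost in all of the fits that left out 1 library except that without APAP 4. With only the groups compared, no list gene named here for SLIT2+APAP against APAP was called. The median of all genes was -0.02 in SLIT2+APAP against SLIT2 and -0.06 in SLIT2+APAP against APAP. In APAP against control, where 0.332% of all genes were called higher, 1 gene of the 6 lists rose, Itih3 (1.64 ± 0.25). Its call was lost without either library of control, SLIT2 or SLIT2+APAP. The median of the 16 acute phase proteins was 1.12, against 0.05 for all genes, and 15 of the 16 values were positive. Of these genes 8 had an unadjusted edgeR p under 0.05. Under the second scaling 4 of them were called higher, where 92 of 17506 genes were. Against control, where 0.717% of all genes were called higher and 1.45% lower, 1 list gene fell in SLIT2+APAP, Apom (-1.39 ± 0.28). This call was lost without either library of control, SLIT2 or SLIT2+APAP, and under the second scaling (-0.89). Under that scaling 5 acute phase proteins, 1 carrier and 1 transcription factor were called higher and no list gene lower. Of all 17506 genes 1225 were then called higher.

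The libraries' cell markers were read beside these results. All 8 hepatocyte genes outside the set were detected in every library, and their summed level per 1000000 counts outside mitochondrially encoded genes was 18031 and 17174 in SLIT2+APAP, 18161 and 18122 in APAP, 19522 and 15511 in SLIT2 and 15448 and 17953 in control. The sums overlapped between SLIT2 and control, with Pck1, Hpd and Fah higher in SLIT2 and Serpina1c, Cyp3a11, Asgr1 and Cps1 lower. All 5 markers of recruited monocytes and macrophages were detected except Ly6c2 in SLIT2 1, and their sum was 49.2 and 70.1 in SLIT2+APAP, 28.2 and 66.5 in APAP, 112 and 155 in SLIT2 and 43.6 and 46.4 in control. Trem2 made up most of the SLIT2 sum, at 82.6 and 131 in SLIT2, against 15.1 and 15.7 in control, while Spp1 was at 23.4 and 16.4 in SLIT2 and at 26.8 and 29.2 in control. The sums of 3 cholangiocyte markers were 7.41 and 11.1 in SLIT2+APAP, 50.4 and 14.6 in APAP, 43.0 and 62.5 in SLIT2 and 6.69 and 5.95 in control. Nearly all of the SLIT2 sum was Sox9 (40.3 and 60.8), while Epcam was at 0.477 and 0.212 in SLIT2 and at 0.599 and 0.926 in control. Those of 4 endothelial markers were 56.0 and 73.8 in SLIT2+APAP, 87.2 and 30.6 in APAP, 105 and 95.1 in SLIT2 and 38.1 and 47.4 in control. Stab2 made up most of the SLIT2 endothelial sum (66.0 and 58.5, against 9.9 and 13.4 in control), while Clec4g overlapped control. Sums of recruited monocyte and macrophage, cholangiocyte and endothelial markers were thus higher in SLIT2 than in control. On this scale 69.0% of all genes were higher without overlap in SLIT2. Neutrophil and stellate sums were also higher, and Kupffer cell sums overlapped. No neutrophil marker exceeded 4.73 in SLIT2, and Ly6g was at 0 in SLIT2 and control. The stellate marker Rgs5 was lower in SLIT2. Of the Kupffer cell markers Clec4f and Timd4 were higher in SLIT2, Vsig4 and Cd5l were lower and Marco overlapped. Erythroid sums were lower in SLIT2 (121.8 and 120.1, against 216.3 and 255.1 in control). Hba-a1 and Hbb-bs were lower there, while Alas2 overlapped control (62.3 and 68.0, against 52.4 and 64.1). The part of these sums in the results was not tested. The 5 skeletal muscle markers summed to at most 2.26 in each of the 6 treated libraries, against 787 and 93.6 in control, so that comparisons with control carry this difference, whose part was not tested. Of 4 enterocyte markers, relevant to Apoa4 and Apob, Alpi was at 0 in 6 libraries and Lct in 5, and Vil1 did not exceed 0.371 per 1000000. Fabp2 accounted for the rest, at 102 and 123 in SLIT2+APAP, 49.8 and 91.8 in APAP, 19.1 and 12.3 in SLIT2 and 196 and 155 in control.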

How the data were processed

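Mouse liver RNA was sequenced in 8 libraries made with a directional kit, per the labels. The deposited table holds raw counts, as whole numbers without scaling, for 23006 Ensembl identifiers. The submitters' processing notes list Cuffdiff 2.2.1, Cufflinks, STAR 2.5.4 and the build mm10. How reads were counted, with which annotation and with what treatment of multiply mapped reads, is not given in the sources used here. Among the 93 deposited counts that reach 1000000, a final 0 occurs in 72, which looks like rounding to 6 digits. GENCODE M21 on GRCm38 matched 22341 identifiers (97.1%).

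Counts were tested in edgeR 4.0.16 (R 4.3.3) with filterByExpr, TMM and a quasi-likelihood fit of 1 mean per group to all 8 libraries, giving 16876 genes, 4 residual degrees of freedom and a common dispersion of 0.112. The code was tested on simulated data. Alternatives were DESeq2 1.42.0 and its size factors, library totals, no filter, no mitochondrially encoded genes, scaling without the members, GC offsets, fewer libraries and a replicate block. Scaling by totals outside mitochondrially encoded genes, and a fit of the 6 block libraries without the block, were added after seeing the data. The members and lists were chosen with earlier results of these data known. All members are described. Other genes named are the called members of a list, at most 4 with the smallest p, and the 3 genes most like Alb, Apoa4 and Apoe. Apod in SLIT2 against control, Angptl8, Lipg and the single cell markers were named after their values were seen. Replicate libraries differed beyond sampling noise in every group (chi-square per degree of freedom of 128 or more). Totals per library of 60.8 to 100.5 M counts (1 M is 1000000) leave counting error small for the 10 members, whose lowest count was 660. This does not extend to genes near the floor, such as Apod and Prox1. Figures used matplotlib 3.10.9. A few genes of the lists are not reported here.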

Additional observations from a re-analysis of the deposited data

Results flagged for a closer look

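For 9 members the effect of SLIT2 differed between mice with and without APAP by edgeR's test of the interaction, on the log2 scale and adjusted over all genes tested. Of all genes tested 15.5% were called positive. The difference was 3.17 for Apoa2, 2.95 for Apoa4, 2.55 for Apoc3, 2.5 for Apoe, 2.47 for Ahsg and 2.42 for Ttr. It was 2.28 for Alb, 1.95 for Apob and 1.92 for Apoc1. Each of the 9 was lower in SLIT2 than in control by the TMM-scaled fit, and in SLIT2+APAP against APAP only Ahsg was called. The SLIT2 libraries, in which 60.2% and 69.0% of counts were mitochondrially encoded, enter every one of these values, and the part of that share was not tested. With totals outside mitochondrially encoded genes the differences of Apoa2, Ttr, Apoe and Ahsg passed the threshold, where 5.54% of all genes were called positive.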

How the results depend on the processing

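The calls in SLIT2 against control and in SLIT2+APAP against SLIT2 stayed at 9 to 10 and at 10 members when each library was left out, while those of the interaction ran from 1 to 10, of SLIT2+APAP against APAP from 0 to 1, of APAP against control from 0 to 1 and of SLIT2+APAP against control stayed at 0. The number called in SLIT2+APAP against APAP was 0 with DESeq2 size factors in edgeR, library totals, GC offsets, only the groups compared, totals outside mitochondrially encoded genes or no mitochondrially encoded genes, and 2 with DESeq2. APAP against control gave 1 with DESeq2, SLIT2+APAP against control gave 2 with only the groups compared, and the interaction gave 4 with totals outside mitochondrially encoded genes.

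Signs changed for these values, of which Cebpa and Cebpb had passed the test with TMM scaling. In SLIT2+APAP against control Apoa2 was 0.26 with library totals, 0.0286 without the SLIT2 libraries and 0.46 with totals outside mitochondrially encoded genes, where Apoa1 was 0.20 and Apoe 0.19. In APAP against control Apob was 0.012 with library totals and 0.0931 with GC offsets. Apoc1 and Apoc3 were 0.0886 and 0.10 with library totals, 0.0093 and 0.0179 with only the groups compared, 0.0094 and 0.0184 without the SLIT2 libraries, and 0.0473 and 0.0584 with totals outside mitochondrially encoded genes. In SLIT2+APAP against APAP that scaling gave 0.13 for Alb and 0.17 for Apoa2, and in SLIT2 against control 0.38 for Cebpa and 0.49 for Cebpb. With each library left out, Apoa4 in SLIT2+APAP against APAP ran from -1.59 to 0.0058. In SLIT2+APAP against control Alb ran from -0.0348 to 0.70, Ttr from -0.081 to 0.33 and Apoa2 from -0.18 to 0.11. In APAP against control Apob ran from -0.41 to 0.11, Apoc1 from -0.36 to 0.26 and Apoc3 from -0.17 to 0.15. The cause of these changes was not tested.

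The summed share was 10.3% in SLIT2+APAP, 12.2% in APAP and 1.43% in SLIT2 with all counts as denominator, and 6.92%, 7.48%, 2.11% and 5.22% in SLIT2+APAP, APAP, SLIT2 and control without Alb. Per 100 other counts outside mitochondrially encoded genes it was 16.7 in SLIT2+APAP and 16.6 in APAP. With 1 library per group it ran from 13.7% to 14.9% in SLIT2+APAP, 13.4% to 15.1% in APAP, 2.87% to 4.95% in SLIT2 and 7.93% to 11.2% in control.

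Replicate numbers gave no sign of a pairing: deviations of same-numbered libraries correlated at 0.075, -0.071 and -0.015, and the APAP libraries carry other numbers. With 1 difference per group, these values cannot exclude a small shared effect. With the replicate block, 10 members were called in SLIT2 against control, 10 in SLIT2+APAP against SLIT2 and 0 in SLIT2+APAP against control. Over all settings the number of all genes called ran from 6272 to 11672 in SLIT2 against control, 2798 to 9660 in SLIT2+APAP against SLIT2, 1 to 6133 in SLIT2+APAP against APAP, 2 to 4246 in SLIT2+APAP against control, 0 to 5181 in APAP against control and 1002 to 8303 in the interaction. Of the calls in SLIT2 against control 49.7% were higher with TMM and 87.1% with totals outside mitochondrially encoded genes, and in SLIT2+APAP against SLIT2 50.8% and 15% were. In SLIT2+APAP against APAP 45.1% were higher with TMM, 61% with library totals and 80.1% with totals outside mitochondrially encoded genes, and in SLIT2+APAP against control 33.2%, 68.5% and 85.2%. In APAP against control 42.1% were higher with TMM and 61.3% with library totals, and in the interaction 53.7% with TMM and 15.1% with totals outside mitochondrially encoded genes. That last scaling moved the median of all genes to 0.38 in SLIT2+APAP against APAP, 0.55 in SLIT2+APAP against control, 0.12 in APAP against control and -1.06 in the interaction, and library totals moved it to 0.34 in SLIT2+APAP against control.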

Other observations

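By Pearson correlation of log2 shares over the 8 libraries, among 1722 protein-coding genes, the gene most like Alb was the lysosomal protease Ctsb (r = 0.987), followed by Ppp1r15b (0.987) and the ribosomal protein gene Rpl7a (0.981). Apoa4 was most like Fth1, the ferritin heavy chain (0.988), Dazap2 (0.977) and Rarres2, which encodes chemerin (0.974). Apoe was most like Eif3h (0.996), Pttg1ip (0.995) and Got2 (0.992). The SLIT2 libraries stand apart from the other 6, and without them the 3 values were 0.961, 0.955 and 0.961 for Alb, 0.988, 0.955 and 0.961 for Apoa4, and 0.926, 0.939 and 0.901 for Apoe. These genes were picked as the highest of 1722, so the values describe the choice.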
